A study of Mus musculus with 15 samples.

Results

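Matrix metalloproteinases, their inhibitor Timp2, heparanase and the membrane protease Adam8 were followed in mouse macrophages exposed to 4 mineral particles. The set was 8 genes chosen by name, with earlier results of these data known: Mmp2, Mmp8, Mmp12, Mmp14, Mmp19, Timp2, Hpse and Adam8. Of these, 7 were among the 10653 genes measured and Mmp14 was not analysed here. A filter of 0.5 FPKM (fragments per kilobase of transcript, scaled to the library's fragments) or more in at least 3 libraries left 10616 genes and 6 of the 7, since Adam8 was below it.

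The cells were MPI macrophages, self-renewing cells of a female C57BL6/J mouse that were grown out of fetal liver and depend on the cytokine GM-CSF, and the study used them as a model of alveolar macrophages. All 5 groups shared these cells, the medium with GM-CSF, a density of 1000000 cells per well and the 24 h time point. One group received no agent, and the others received riebeckite asbestos at 9 µg/cm², riebeckite cleavage fragments at 40 µg/cm², tremolite asbestos at 5 µg/cm² or tremolite cleavage fragments at 60 µg/cm². The masses differed because the doses were matched on particle surface area. Each particle had its own mass, so neither habit (asbestos or fragments) nor mineral can be told apart from mass dose here. An effect of habit below means asbestos against fragments at these masses. Riebeckite and tremolite are amphibole minerals, and each can grow as thin flexible fibers (asbestos) or break into stouter fragments of the same composition. There were 3 libraries per group, 15 in all. Whether a group's 3 libraries stand for separate cultures is not in the labels, and the p-values below rest on the spread between libraries, which may be technical.

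Matrix metalloproteinases are zinc-dependent enzymes that cut extracellular matrix proteins and also cytokines, receptors and other proteases. Most are secreted as inactive precursors, are switched on by removal of a propeptide, and are held in check by tissue inhibitors of metalloproteinases such as TIMP2. In the lung, macrophage elastase (MMP12) is known from emphysema, and metalloproteinases in general from the remodelling that accompanies fibrosis. Heparanase is no metalloproteinase. It cuts heparan sulfate chains of the matrix and of the cell surface, which releases growth factors and chemokines bound to them.

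The 5 measured metalloproteases share a site in which 3 histidines hold the catalytic zinc and a glutamate activates water. The coding DNA of that site shows what the list of names left unsaid: which measured members carry the catalytic residues. Mmp14, also a matrix metalloproteinase by name, was not searched. Codons of the 3 histidines and the glutamate are in capitals, read 5′ to 3′ from the GENCODE M21 transcripts on GRCm38.
Mmp2: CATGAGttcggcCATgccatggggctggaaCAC
Mmp8: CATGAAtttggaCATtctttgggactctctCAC
Mmp12: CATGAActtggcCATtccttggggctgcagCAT
Mmp19: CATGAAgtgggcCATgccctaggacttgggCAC
Adam8: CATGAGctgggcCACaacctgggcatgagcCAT
The site lies at chr8:92839279-92839311 on the plus strand in exon 8 of 13 of Mmp2, at chr9:7563086-7563118 on the plus strand in exon 5 of 10 of Mmp8, at chr9:7352914-7352946 on the plus strand in exon 5 of 10 of Mmp12, at chr10:128795673-128795705 on the plus strand in exon 5 of 9 of Mmp19 and at chr7:139987893-139987925 on the minus strand in exon 11 of 24 of Adam8. Over the 33 bases, Mmp2 and Mmp12 were identical at 25, the closest pair, and Mmp8 and Adam8 at 17, the most distant. The reading frames of Timp2 and Hpse held 0 such sites.

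Upstream sequences are given for 3 members whose gene values followed different patterns below. Mmp12 and Mmp8 stood higher after fragments than after asbestos, and Hpse was higher after riebeckite than after tremolite. Each is the 250 bases before a RefSeq transcription start on GRCm38.p6, written 5′ to 3′ along the gene, with motif matches in capitals.
Mmp12, chr9:7347124-7347373, plus strand: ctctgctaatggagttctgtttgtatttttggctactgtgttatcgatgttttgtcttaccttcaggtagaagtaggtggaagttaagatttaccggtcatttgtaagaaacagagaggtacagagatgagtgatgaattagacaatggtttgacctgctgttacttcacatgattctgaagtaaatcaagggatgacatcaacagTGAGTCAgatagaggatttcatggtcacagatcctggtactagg
Mmp8, chr9:7558179-7558428, plus strand: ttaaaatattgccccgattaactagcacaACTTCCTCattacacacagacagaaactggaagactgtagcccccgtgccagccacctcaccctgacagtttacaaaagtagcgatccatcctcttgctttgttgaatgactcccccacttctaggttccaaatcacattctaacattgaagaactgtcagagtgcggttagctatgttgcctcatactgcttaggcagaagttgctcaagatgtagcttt
Hpse, chr5:100719717-100719966, minus strand: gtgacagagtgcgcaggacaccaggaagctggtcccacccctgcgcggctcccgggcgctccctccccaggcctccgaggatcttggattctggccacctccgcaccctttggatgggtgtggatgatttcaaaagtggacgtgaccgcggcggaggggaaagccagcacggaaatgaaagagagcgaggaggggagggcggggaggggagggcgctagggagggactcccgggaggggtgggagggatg
The capitals in Mmp12 are an AP-1 motif, 44 to 38 bases before the start. Those in Mmp8 are a match to the PU.1 motif GAGGAAGT on the opposite strand, 221 to 214 bases before the start. No searched motif matched in the Hpse window, whose bases were 66.8% G or C against a median of 52.4% over all windows. Both strands were searched for 7 motifs: AP-1 (TGANTCA, in 6.75% of 32817 windows of this length), PU.1 (2.44%), STAT (TTCNNNGAA, 7.02%), TATA box (TATAAA, 12.4%), E-box (CACGTG, 6.02%), an antioxidant response motif (TGACNNNGC, 10.2%) and NF-kB (7.25%). RefSeq windows matched 6 of the 8 names, and Mmp2 and Mmp19 are named only. The gene Mmp12 has a second RefSeq start further upstream, whose window held a PU.1 match and an NF-kB match. The Timp2 window held 1 antioxidant match, and the Adam8 window held none of the 7 motifs. A match describes letters in a window and not a bound site.

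Libraries were alike in overall scale: summed FPKM ran from 257329 to 273570, Spearman correlations from 0.988 to 0.992 within groups and from 0.963 to 0.990 between groups. No file repeated another (0 identical pairs). Mitochondrial genes made 6.08% to 8.86% of summed FPKM, and riebeckite asbestos libraries were lowest, at 6.08% to 6.90%. The depth of the libraries is unknown. All 11 macrophage markers and all 9 alveolar macrophage markers had values, with Lyz2 (lysozyme) at a mean of 4066 FPKM and Marco (a scavenger receptor) at 1046 FPKM in untreated cells. The lowest of these markers in untreated cells were Krt79, at 0.255 FPKM, and Siglecf, at 10.7 FPKM. Mean Krt79 was 2.83 to 6.83 FPKM in the exposed groups. These are bulk samples, so a change in the number of cells that express a gene and a change in RNA per cell cannot be told apart.

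Against untreated cells, the metalloproteinases mostly rose, the inhibitor did not rise, and heparanase rose after riebeckite. Tests were limma's moderated test on log2(FPKM + 1), 1 fit over the 15 libraries, with p-values adjusted by the Benjamini-Hochberg method over the 10616 genes and called under 0.05. Differences below are on that log2 scale, which understates changes of low genes. After riebeckite asbestos, 4 of the 6 tested members were called higher and 1 lower, while 45.3% of all genes were called, 21% higher and 24.3% lower. After riebeckite fragments, 5 were called higher and 0 lower, while 38.4% of all genes were called, 15.3% higher and 23.1% lower. Tremolite asbestos had 3 members called higher and 0 lower, and 23.9% of all genes called, 10% higher and 13.9% lower. For tremolite fragments the count was 4 higher and 0 lower, and 27.5% of all genes were called, 12.5% higher and 15% lower. The balance over all genes depended on the scaling, while these counts of members were the same under the 3 rescalings tried. After riebeckite fragments 1626 of 4073 called genes were higher, 1995 of 3896 with a trimmed mean (TMM) rescaling and 1297 of 4530 with rescaling to nuclear genes. After tremolite asbestos it was 1062 of 2540, or 1330 of 2435 with TMM, and after riebeckite asbestos 2232 of 4807, or 1771 of 4922 with nuclear genes. The median difference over the 6 members was 0.64, 0.98, 0.16 and 0.73 in the same order, and over all genes tested it was -0.02, -0.04, -0.03 and -0.02. Since the members were chosen with earlier results of these data known, these contrasts with all genes are a description, not an unbiased comparison. The 4 comparisons share the untreated libraries.

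**Figure D1:**
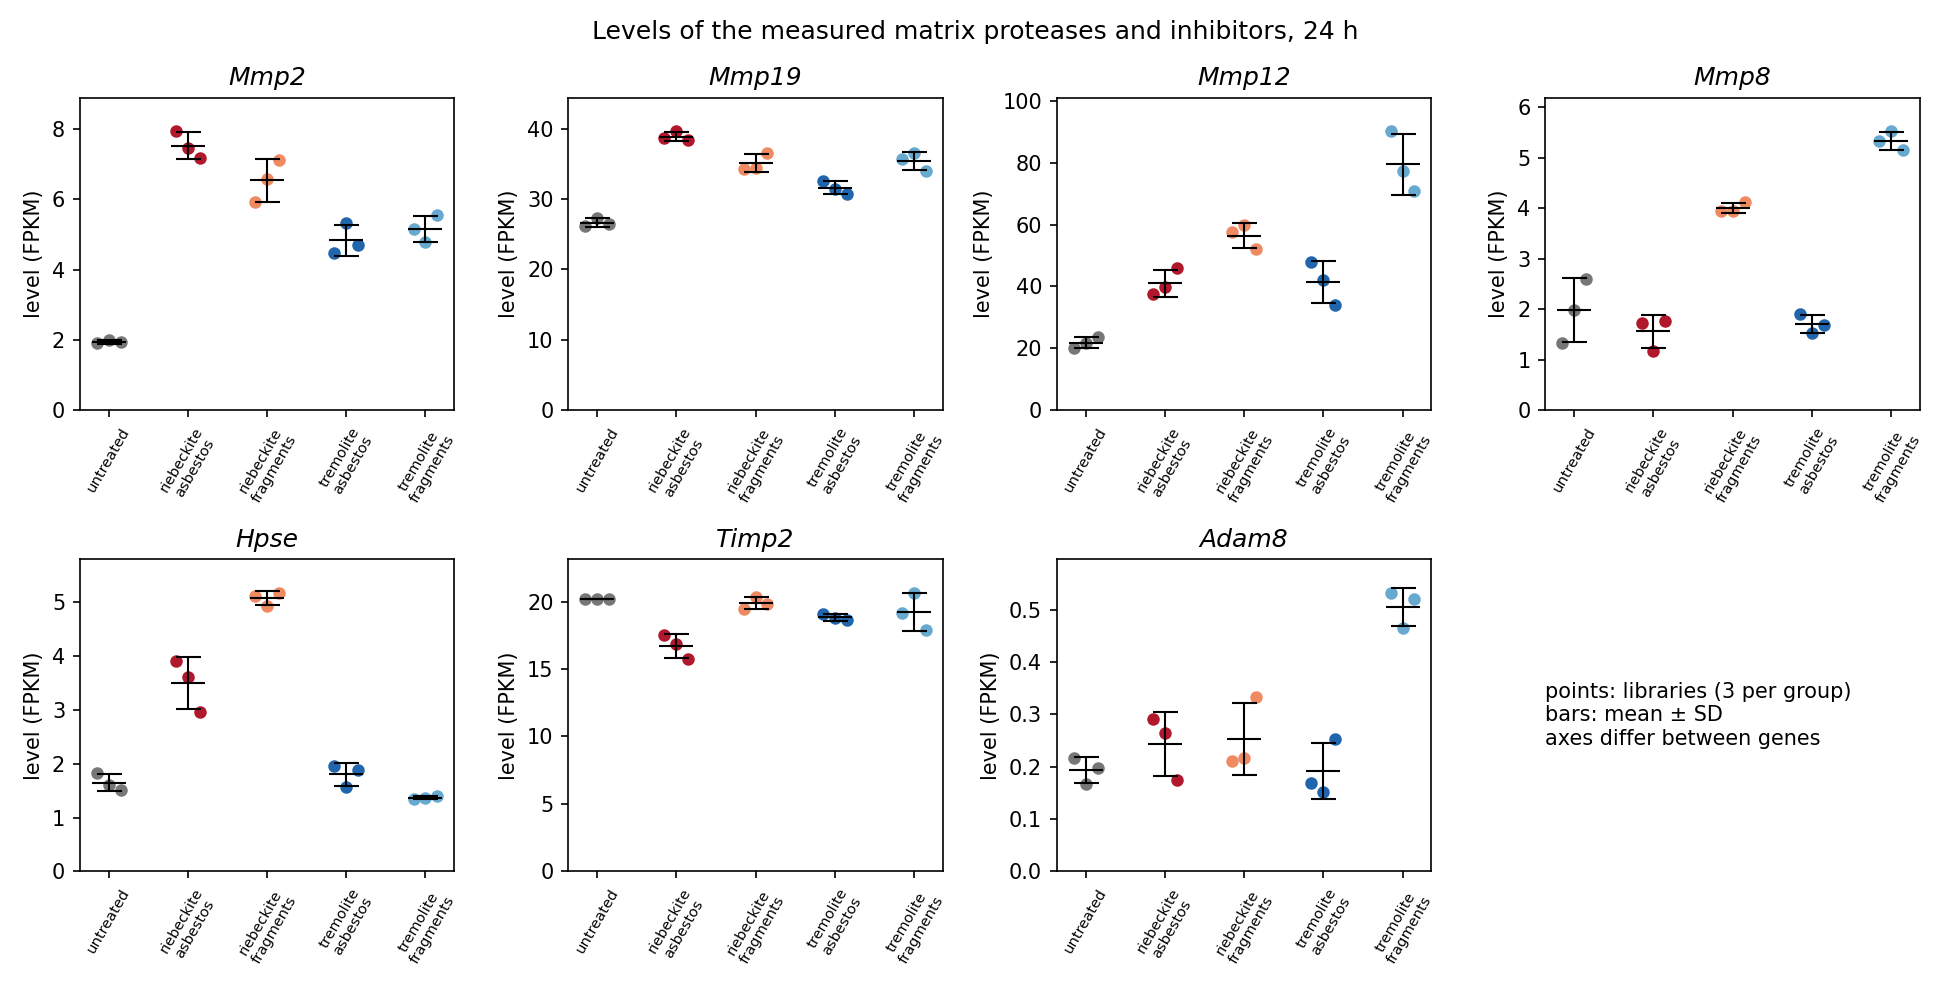
Level in FPKM (y axis, from 0, scaled per gene) of the 7 measured members in the 5 groups (x axis). Points are libraries, 3 per group, and bars are the mean ± SD. Mmp2 was lowest in the 3 untreated libraries, and Mmp8 was highest in the 6 fragment libraries.

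Mmp2 encodes gelatinase A, which degrades denatured collagens and type IV collagen of basement membranes. The gene (ENSMUSG00000031740.8) lies at chr8:92827291-92853420 on the plus strand. Untreated libraries were at 1.91, 2.01 and 1.93 FPKM. Riebeckite asbestos libraries were at 7.94, 7.46 and 7.18 FPKM and riebeckite fragment libraries at 5.92, 6.58 and 7.13 FPKM. Tremolite gave 4.46, 5.34 and 4.70 FPKM after asbestos and 5.16, 4.79 and 5.55 FPKM after fragments. All 12 exposed libraries were above all 3 untreated ones, and riebeckite libraries were above tremolite libraries without overlap. Such separation of 3 libraries from 3 was common among all genes tested. Against untreated it held for 55.33% and 49.11% after riebeckite asbestos and fragments, and 39.85% and 45.09% after tremolite asbestos and fragments. Between habits it held for 28.99% in riebeckite and 17.02% in tremolite. Between minerals it held for 40.65% among asbestos and 31.96% among fragments. Mean FPKM was 3.86 times the untreated mean after riebeckite asbestos, 3.36 times after riebeckite fragments, 2.48 times after tremolite asbestos and 2.65 times after tremolite fragments. The log2 differences were 1.53, 1.35, 0.98 and 1.06, each with an SE of 0.0711, and adjusted p was between 2.03e-09 and 5.45e-07.

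Differences in Mmp2 passed the test between minerals and not between habits. Riebeckite asbestos exceeded tremolite asbestos by 0.55 (adjusted p = 0.000111), and riebeckite fragments exceeded tremolite fragments by 0.29 (adjusted p = 0.0209), a call that was lost in 7 of 16 alternative settings. Asbestos and fragments differed by 0.18 within riebeckite (95% interval 0.02 to 0.33, adjusted p = 0.136) and by -0.08 within tremolite (95% interval -0.24 to 0.07, adjusted p = 0.765). Neither passed the test, and the intervals leave room for a modest difference within riebeckite.

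Mmp19 encodes a metalloproteinase that acts on basement membrane proteins. Its gene (ENSMUSG00000025355.7, chr10:128790910-128800824, plus strand) was already well expressed without particles, at 26.2, 27.3 and 26.4 FPKM. Libraries after riebeckite asbestos were at 38.7, 39.6 and 38.3 FPKM and after riebeckite fragments at 34.3, 34.4 and 36.6 FPKM. Levels after tremolite asbestos were 32.6, 31.4 and 30.8 FPKM and after tremolite fragments 35.6, 36.6 and 34.0 FPKM. Every exposed library was above every untreated one, riebeckite asbestos was the highest group and tremolite asbestos the lowest of the exposed groups. The increases were small but tight: 0.53, 0.38, 0.24 and 0.40 on the log2 scale (SE 0.0365), with adjusted p between 9.37e-08 and 0.000403.

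The order of the 2 habits in Mmp19 depended on the mineral. Asbestos was above fragments by 0.14 in riebeckite (adjusted p = 0.0253, lost in 6 of 16 alternatives) and below by 0.16 in tremolite (difference -0.16, adjusted p = 0.0657, not called). The difference between these effects was 0.30 (SE 0.0517, adjusted p = 0.00731) and was called in all 22 alternatives tried. The fragments of the minerals were close in Mmp19 (riebeckite minus tremolite -0.01, 95% interval -0.09 to 0.07), and the asbestos forms were apart by 0.29 (adjusted p = 8.73e-05).

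Transcripts of Mmp19 were measured in a separate table of 22795 transcripts, of which 22038 passed the same filter. Transcript Mmp19-201 made 60.7% of the summed Mmp19 transcripts in untreated cells and from 61.8% to 69.7% in the exposed groups' means. It was called higher after each particle, by 0.54, 0.52, 0.36 and 0.54 for riebeckite asbestos, riebeckite fragments, tremolite asbestos and tremolite fragments. The share of all tested transcripts called in these comparisons was 13%, 10.3%, 5.02% and 6.29%. Transcript Mmp19-203 was not called in any of the 4, with differences of 0.45, -0.01, -0.12 and -0.01. Its level was 12.5 FPKM in the mean of untreated libraries and 20.4, 19.1 and 13.8 FPKM in the 3 riebeckite asbestos libraries, of which the third was close to the untreated level. The 2 transcripts share exons, and the split between them is an estimate of the authors' software.

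Mmp12 encodes macrophage metalloelastase, which degrades elastin and is made mainly by macrophages. It was the member with the highest level in every exposed group. The gene (ENSMUSG00000049723.14) lies at chr9:7344381-7369499 on the plus strand. Untreated libraries were at 20.0, 21.7 and 23.6 FPKM. Riebeckite asbestos gave 37.5, 39.8 and 45.9 FPKM and riebeckite fragments 57.5, 59.7 and 52.0 FPKM. Tremolite asbestos gave 47.7, 42.1 and 34.1 FPKM and tremolite fragments 90.1, 77.2 and 71.0 FPKM. The lowest exposed library was above the highest untreated one, and within each mineral fragments were above asbestos without overlap. Mean FPKM was 1.88, 2.59, 1.90 and 3.65 times the untreated mean for riebeckite asbestos, riebeckite fragments, tremolite asbestos and tremolite fragments. The log2 differences of 0.88, 1.33, 0.88 and 1.82 (SE 0.119) had adjusted p of 4.95e-05, 1.51e-06, 0.000133 and 1.55e-07.

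Both asbestos forms raised Mmp12 to nearly the same level, with a riebeckite minus tremolite difference of -0.00 (95% interval -0.26 to 0.26). Asbestos was below fragments by 0.45 in riebeckite (difference -0.45, adjusted p = 0.0297, lost in 5 of 16 alternatives) and by 0.93 in tremolite (difference -0.93, adjusted p = 0.00267, or 0.0578 with only those groups fitted). Riebeckite fragments were below tremolite fragments (difference -0.48, adjusted p = 0.0216), a call lost in 5 of 16 alternatives. Of these, 4 left out 1 library, either riebeckite fragments replicate 1 or 3 or tremolite fragments replicate 1 or 2 (adjusted p from 0.0534 to 0.0822). The transcript table changed the last 2 values. Summed transcripts gave -0.47 for tremolite asbestos against tremolite fragments (adjusted p = 0.42) and -0.06 for riebeckite against tremolite fragments (adjusted p = 0.87), and neither was called. For riebeckite asbestos against riebeckite fragments they gave -0.44, close to the gene value, but that call was lost too (limma, adjusted p = 0.172). For Mmp12 3 transcripts were listed, and their sum was between 80.2% and 137.5% of the gene value, so the 2 tables disagree on this gene by more than on the other members. Transcript Mmp12-201, which starts next to the first window printed above, made 76.6% to 100% of the sum. By the same limma test on transcripts, Mmp12-201 was not called between asbestos and fragments. The differences were -0.31 in riebeckite (adjusted p = 0.622) and -0.40 in tremolite (adjusted p = 0.834), each with an SE of 0.213. Of all 22038 transcripts tested, 282 were called between the riebeckite habits and 27 between the tremolite habits. With so few called, the missing calls say little about this transcript. Transcripts Mmp12-202 and Mmp12-203 were each listed at 0 in 12 and 7 of the 15 libraries.

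Mmp8 encodes neutrophil collagenase, which cuts fibrillar collagens and is stored in neutrophil granules. The gene (ENSMUSG00000005800.3, chr9:7558456-7568485, plus strand) was low. Untreated libraries spread from 1.34 through 1.98 to 2.61 FPKM. Asbestos libraries lay inside or just below that range, at 1.74, 1.17 and 1.77 FPKM for riebeckite and 1.91, 1.54 and 1.68 FPKM for tremolite. Fragment libraries were all above it, at 3.95, 3.95 and 4.12 FPKM for riebeckite and 5.33, 5.52 and 5.16 FPKM for tremolite. The log2 differences from untreated were 0.77 after riebeckite fragments (SE 0.13, adjusted p = 0.000393) and 1.11 after tremolite fragments (SE 0.13, adjusted p = 2.89e-05). After asbestos they were -0.20 for riebeckite (95% interval -0.49 to 0.08, adjusted p = 0.224) and -0.12 for tremolite (95% interval -0.40 to 0.17, adjusted p = 0.576). Without the untreated library with the lowest value, replicate 1, the riebeckite asbestos difference was -0.37 and passed the test (adjusted p = 0.0168).

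Asbestos and fragments, at their different masses, were apart in Mmp8 in both minerals. Asbestos was lower than fragments by 0.98 in riebeckite (difference -0.98, adjusted p = 0.0007) and by 1.23 in tremolite (difference -1.23, adjusted p = 0.00064), and both calls held in all 15 alternatives. The effect of habit did not differ detectably between minerals (difference of effects 0.25, 95% interval -0.15 to 0.65, adjusted p = 0.508). Tremolite fragments were above riebeckite fragments without overlap, but the difference was not called (-0.34, adjusted p = 0.117) unless only those groups were fitted (adjusted p = 0.0140).

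Mmp8 and Mmp12 belong to a cluster of metalloproteinase genes on chromosome 9, in which 3 of 10 listed genes had values: Mmp13, Mmp12 and Mmp8, in that order along the plus strand. Mmp13 (collagenase-3) ends 61.0 kb before Mmp12 starts, and Mmp12 ends 189.0 kb before Mmp8 starts. Mmp13, not one of the 8 chosen genes, was near the lower limit of the table. Its mean was 0.157 ± 0.0503 FPKM in untreated cells, 0.406 ± 0.216 after riebeckite asbestos and 0.634 ± 0.0289 after riebeckite fragments (SD, n = 3). After tremolite it was 0.241 ± 0.0165 FPKM with asbestos and 0.699 ± 0.0695 with fragments (SD, n = 3). Mmp13 reached 0.5 FPKM in the 6 fragment libraries and in 1 riebeckite asbestos library and passed the filter on low values through them, so its levels are a description with no test.

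Timp2 encodes the tissue inhibitor that blocks metalloproteinases and, bound to MMP14, also takes part in activating the MMP2 precursor. The gene (ENSMUSG00000017466.9) lies at chr11:118301069-118355740 on the minus strand. The 3 untreated libraries were all at 20.2 FPKM. Riebeckite asbestos libraries were at 17.5, 16.8 and 15.7 FPKM, below every library of every other group. Riebeckite fragments gave 19.5, 20.4 and 19.8 FPKM, tremolite asbestos 19.1, 18.8 and 18.6 FPKM and tremolite fragments 19.1, 20.7 and 17.9 FPKM. The decrease after riebeckite asbestos was called (difference -0.26, SE 0.0481, adjusted p = 0.000627) and kept its call in all 16 alternatives. Differences after the other 3 particles were -0.02, -0.10 and -0.07, with 95% intervals of -0.13 to 0.08, -0.20 to 0.01 and -0.18 to 0.03, and were not called.

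Set against its mineral counterparts, riebeckite asbestos was lower in Timp2 than riebeckite fragments (difference -0.24, adjusted p = 0.00824, or 0.0596 with only those groups fitted) and than tremolite asbestos (-0.16, adjusted p = 0.023, lost in 4 of 16 alternatives). The difference of the habit effects between minerals was -0.21 and was not called (adjusted p = 0.111), but it passed with quantile normalization (-0.27, adjusted p = 0.0407). Transcript Timp2-201 made 96.8% to 100% of summed Timp2 transcripts. Riebeckite asbestos libraries also had the lowest mitochondrial share, given above, and its part in the Timp2 result was not tested beyond rescaling to nuclear genes, under which the call held.

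**Figure D2:**
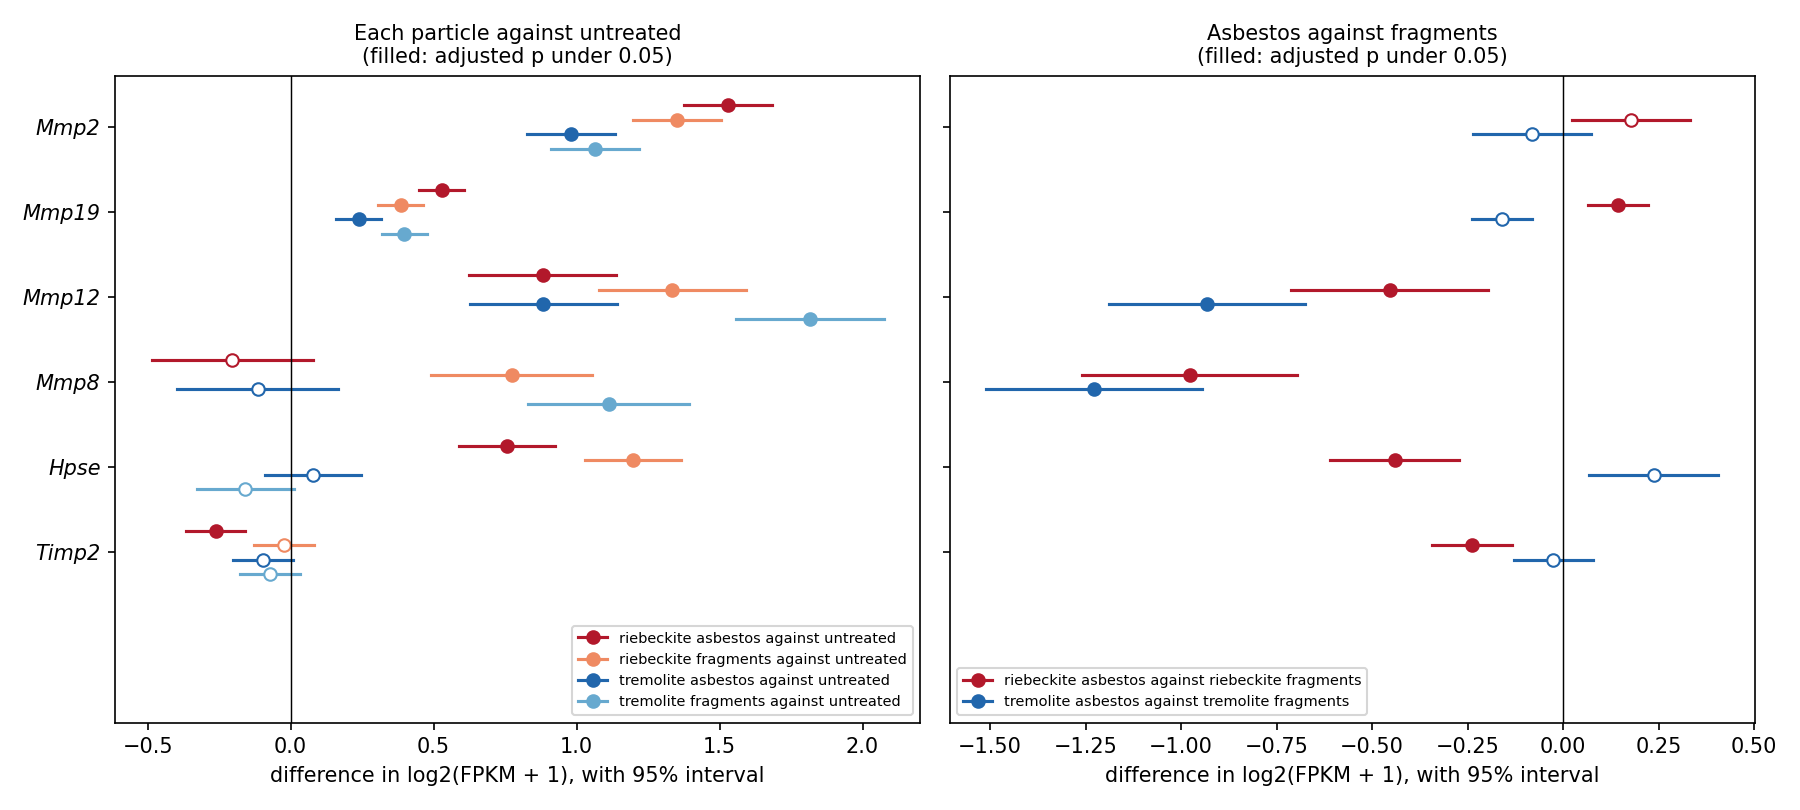
Differences in log2(FPKM + 1) with 95% intervals (x axis) for the 6 tested members (y axis). The left panel sets each particle against untreated cells and the right panel sets asbestos against fragments within a mineral, with filled points where adjusted p was under 0.05. Mmp8 and Mmp12 lie left of 0 for both minerals on the right, and Hpse lies on opposite sides of 0.

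The balance of enzyme and inhibitor mRNA was described by the ratio of FPKM values within a library. Mmp2 over Timp2 was 0.0964 ± 0.00249 in untreated cells and 0.451 ± 0.00709 after riebeckite asbestos (SD, n = 3). It was 0.329 ± 0.0286 after riebeckite fragments, 0.257 ± 0.0257 after tremolite asbestos and 0.271 ± 0.0392 after tremolite fragments (SD, n = 3). Mmp12 over Timp2 was highest after tremolite fragments, at 4.14 ± 0.509, against 1.08 ± 0.0877 in untreated cells (SD, n = 3). Mmp19 over Timp2 was 1.32 ± 0.0295 in untreated cells and highest after riebeckite asbestos, at 2.33 ± 0.118 (SD, n = 3). For Mmp8 over Timp2 the asbestos groups, at 0.0938 ± 0.0219 and 0.0907 ± 0.00895, stayed near the untreated ratio of 0.0978 ± 0.0314 (SD, n = 3). These ratios compare mRNA levels per length and say nothing of protein or enzyme activity.

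**Figure D3:**
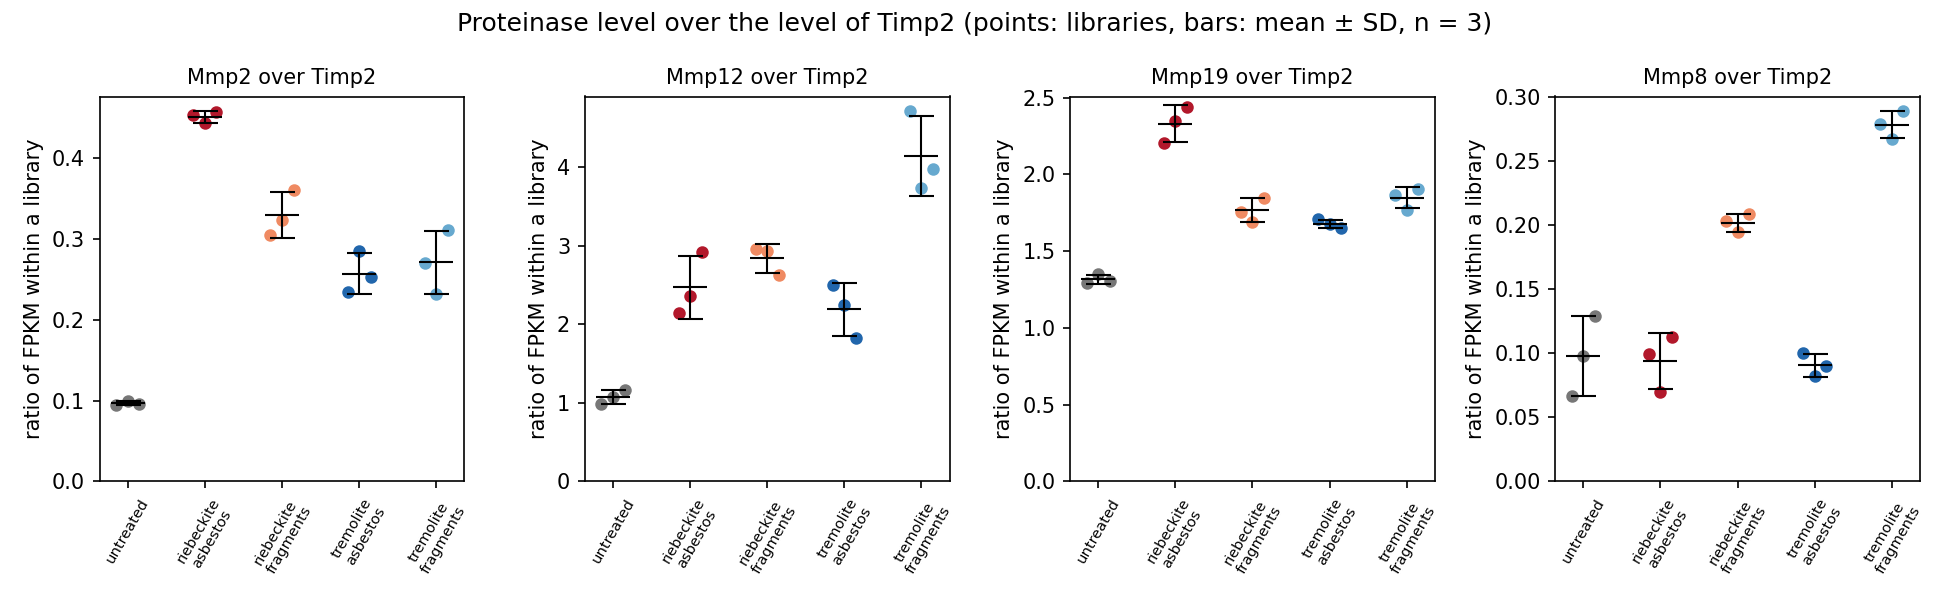
Ratio of the FPKM of 4 metalloproteinases to that of Timp2 in the same library (y axis, from 0, scaled per panel) in the 5 groups (x axis). Points are libraries and bars the mean ± SD, n = 3. The ratio of Mmp2 was highest after riebeckite asbestos and those of Mmp12 and Mmp8 after tremolite fragments.

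Hpse encodes heparanase, the enzyme that cleaves heparan sulfate inside the chain. The gene (ENSMUSG00000035273.14) lies at chr5:100679484-100719716 on the minus strand. Untreated libraries were at 1.82, 1.61 and 1.52 FPKM. Riebeckite asbestos gave 3.90, 3.62 and 2.96 FPKM and riebeckite fragments 5.11, 4.92 and 5.18 FPKM. Tremolite asbestos gave 1.96, 1.56 and 1.88 FPKM and tremolite fragments 1.35, 1.36 and 1.40 FPKM. The 6 riebeckite libraries were above all others, tremolite asbestos overlapped the untreated range, and tremolite fragments were just under it. Hpse rose by 0.76 after riebeckite asbestos (SE 0.078, adjusted p = 4.35e-06) and by 1.20 after riebeckite fragments (SE 0.078, adjusted p = 7.81e-08). Tremolite differences were 0.08 for asbestos (95% interval -0.09 to 0.25, adjusted p = 0.522) and -0.16 for fragments (95% interval -0.33 to 0.01, adjusted p = 0.158).

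Minerals differed directly in Hpse. Riebeckite exceeded tremolite by 0.68 among asbestos (adjusted p = 4.34e-05) and by 1.36 among fragments (adjusted p = 5.58e-07). Within riebeckite, asbestos was below fragments (difference -0.44, adjusted p = 0.00409, lost when only those groups were fitted). Within tremolite, asbestos was above fragments by 0.24 without overlap, which was not called (adjusted p = 0.238). The difference between these habit effects was -0.68 (SE 0.110, adjusted p = 0.0057) and was called in all 21 alternatives tried.

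Adam8 encodes a membrane-anchored protease of myeloid cells that cuts adhesion molecules and cytokine receptors. It (ENSMUSG00000025473.16, chr7:139978932-139992562, minus strand) was at the edge of the table, whose lowest highest-group mean is 0.5003 FPKM. Untreated libraries were at 0.216, 0.167 and 0.197 FPKM. Riebeckite asbestos gave 0.292, 0.265 and 0.175 FPKM, riebeckite fragments 0.211, 0.216 and 0.333 FPKM and tremolite asbestos 0.170, 0.152 and 0.253 FPKM. Tremolite fragments gave 0.532, 0.465 and 0.520 FPKM, a mean of 0.506 ± 0.036 (SD, n = 3), and these libraries were above the other 12. Adam8 entered the table through this group, so the difference is given as a description with no test.

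Direct comparisons between particles had few genes called in tremolite and more elsewhere. Of the 6 tested members, riebeckite asbestos against riebeckite fragments had 1 higher (Mmp19) and 4 lower (Mmp8, Mmp12, Timp2 and Hpse), with 10.6% of all genes called. Tremolite asbestos against tremolite fragments had 0 higher and 2 lower (Mmp8 and Mmp12), with 0.942% of all genes called. Between asbestos forms, riebeckite was higher in 3 (Mmp2, Mmp19 and Hpse) and lower in 1 (Timp2), with 26.5% of all genes called. Between fragments, riebeckite was higher in 2 (Mmp2 and Hpse) and lower in 1 (Mmp12), with 11.3% called. Across both mineral and habit, riebeckite asbestos against tremolite fragments had 3 members higher and 3 lower (24.7% of all genes called), and riebeckite fragments against tremolite asbestos had 5 higher and 0 lower (15.7% called). The difference of habit effects between minerals was called for Mmp19 and Hpse, in opposite directions, and for 3.93% of all genes. Here too the scaling moved the balance over all genes. Between the riebeckite habits 712 of 1121 called genes were higher after asbestos, 492 of 1061 with TMM and 488 of 1062 with quantile normalization, under which Mmp19 lost its call. Between fragments 564 of 1202 were higher after riebeckite, 667 of 1165 with TMM and 378 of 1373 with nuclear genes, under which Mmp2 lost its call. Rescaling to nuclear genes also moved riebeckite asbestos against tremolite fragments from 1433 of 2623 higher to 972 of 2434, and riebeckite fragments against tremolite asbestos from 837 of 1663 to 627 of 1626. For the difference of habit effects 281 of 417 were above 0, 197 of 394 with TMM and 202 of 371 with quantile normalization.

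Member levels moved together in part. Over the 15 libraries, on log2(FPKM + 1), Pearson's r was 0.93 between Mmp2 and Mmp19, 0.75 between Mmp8 and Mmp12 and 0.70 between Mmp12 and Mmp19. It was -0.57 between Timp2 and each of Mmp2 and Mmp19, and -0.01 between Mmp8 and Hpse. These values describe 5 groups of 3 libraries, so they mostly restate the group means, and the members share libraries and scale.

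**Figure D4:**
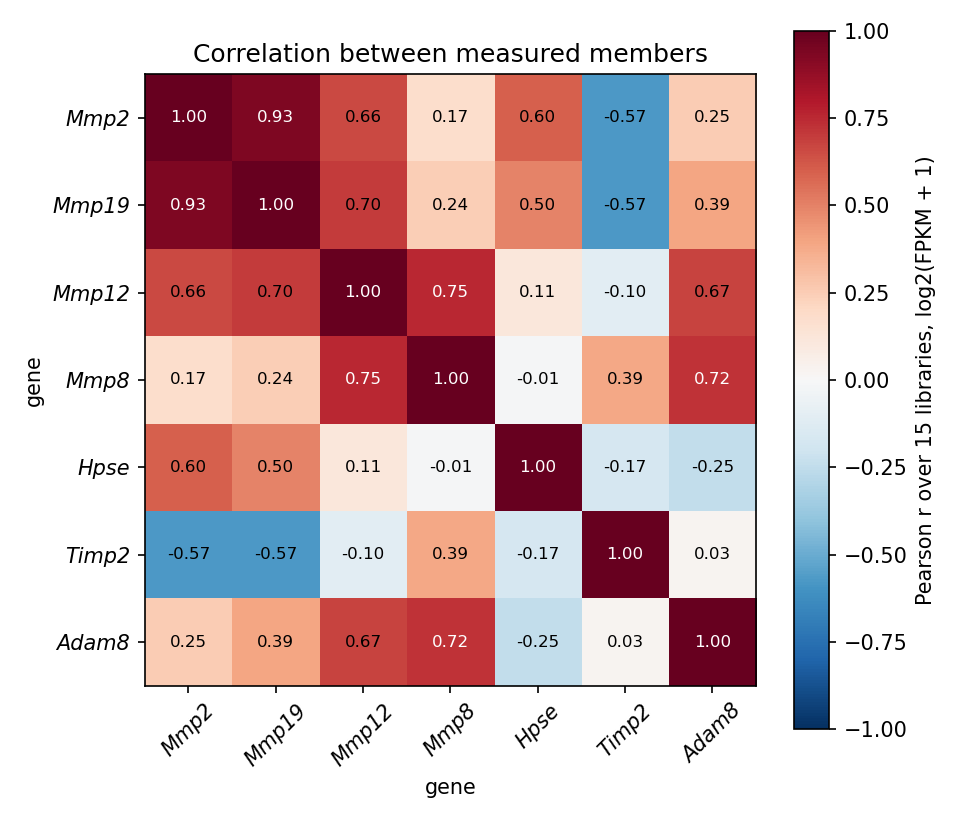
Pearson's r between the 7 measured members over 15 libraries on log2(FPKM + 1), both axes listing genes and colour running from -1 to 1. Mmp2 and Mmp19 had the highest value, 0.93. Values of Adam8 largely reflect tremolite fragments, the group through which it entered the table.

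Genes with the most similar profile to each member were taken by r over the same 15 libraries among 9545 genes. For Mmp2 they were C3 (complement component, r = 0.991), Scarb2 (0.989) and Bhlhe41 (0.987). C3 went from a mean of 74.1 FPKM in untreated cells to 160.5 after riebeckite asbestos, 145.1 after riebeckite fragments, 125.1 after tremolite asbestos and 126.3 after tremolite fragments. For Mmp19 they were Elk3 (0.987), Tbc1d9 (0.981) and Fosl2 (an AP-1 subunit, 0.974). The closest to Mmp12 were Peli2 (0.950), Pnpla7 (0.946) and Serpinb1a (0.937), the last an inhibitor of neutrophil serine proteases. Mmp8 had no gene above 0.9, with Foxq1 (0.880), Pxmp4 (0.878) and Sort1 (0.869) nearest. Hpse was nearest to Agt (angiotensinogen, 0.977), Atp2a3 (0.962) and Cd74 (the invariant chain, 0.947). Timp2 was nearest to Cryzl1 (0.905), Gprc5c (0.875) and Parn (0.861), and Adam8 to Lcor (0.841), Otud5 (0.837) and Zkscan17 (0.802). Since Adam8 was below the filter and entered the table through tremolite fragments, its values of r largely reflect that group. The profile of Mmp2 was a common one, with 372 genes above 0.9, and so was that of Mmp19, with 297. For Hpse 24 genes were above 0.9, for Mmp12 14, for Timp2 1 and for Adam8 0.

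Other genes of matrix turnover were taken from fixed lists, in the order riebeckite asbestos, riebeckite fragments, tremolite asbestos and tremolite fragments against untreated. Over all genes tested, 21%, 15.3%, 10% and 12.5% were called higher and 24.3%, 23.1%, 13.9% and 15% lower in that order. The counts of each list stand beside these shares. Of 18 other metalloproteinases 2 had values, Mmp13 and Mmp23, and Mmp23 was below the filter. Of 9 other metalloprotease inhibitors, 0 had values here, which leaves Timp2 as the inhibitor described. Of genes that activate or clear metalloproteinases, 7 were tested, of which 4, 4, 2 and 2 were higher and 1 was lower each time. Medians were 0.40, 0.26, 0.07 and 0.17. Bsg (basigin, an inducer of metalloproteinases) rose by 0.56, 0.51, 0.28 and 0.41. Lrp1, an endocytic receptor that clears metalloproteinases, rose by 0.40, 0.26, 0.15 and 0.17. Itgav (integrin alpha V) rose by 0.77 and 0.64 after riebeckite and was at -0.06 and -0.01 after tremolite, not called. Furin, a protease that removes propeptides, fell after riebeckite fragments (-0.23), with 0.01, -0.02 and -0.13 elsewhere.

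The plasminogen system can activate metalloproteinase precursors. Of 7 tested genes 3, 3, 2 and 2 were higher and 4, 3, 3 and 3 lower, with medians of -0.23, -0.10, -0.03 and -0.09. Plaur (the urokinase receptor) fell by 0.43, 0.40, 0.46 and 0.49, Thbd (thrombomodulin) by 0.91, 0.60, 0.47 and 0.60 and S100a10 (a plasminogen receptor subunit) by 0.23, 0.24, 0.13 and 0.24.

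Cathepsins, lysosomal proteases that also cut matrix, went both ways: of 12 tested, 5, 5, 6 and 5 were higher and 5, 4, 2 and 3 lower, with medians of 0.04, 0.07, 0.14 and 0.05. Ctsk, a collagen-degrading cathepsin, rose from 806 ± 48.2 FPKM (SD, n = 3) by 1.16, 0.82, 0.67 and 0.42, and Ctsz rose by 0.48, 0.41, 0.28 and 0.23. Ctsc, which activates neutrophil serine proteases, fell by 0.71, 0.76, 0.40 and 0.62 and Lgmn (legumain) by 0.43, 0.42, 0.19 and 0.39. Of 2 cystatins, which inhibit cathepsins, Cstb rose by 0.51, 0.44, 0.31 and 0.25, and Cst3 fell after tremolite fragments (-0.25) and was not called elsewhere. Among 7 serine proteases and serpins 3, 3, 4 and 2 were higher and 0 lower, with medians of 0.09, 0.17, 0.19 and 0.14. St14 (matriptase) rose by 0.75, 0.87, 0.19 and 0.28. Serpinb1a rose by 0.27, 0.59, 0.23 and 0.64 and was lower after asbestos than after fragments in riebeckite (-0.32, adjusted p = 0.0147) and in tremolite (-0.41, adjusted p = 0.0192), as Mmp12 was. Slpi, an elastase inhibitor, rose by 0.41, 0.43 and 0.30 and was at 0.14 after tremolite fragments, not called.

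Of 7 other ADAM genes and partners, 1 was higher and 1 lower in each of the 4 comparisons, with medians of -0.03, -0.07, 0.00 and 0.04. Rhbdf2, which brings ADAM17 to the cell surface, rose by 0.73, 0.44, 0.30 and 0.50. Adam33 fell by 0.41 and 0.42 after riebeckite and by 0.18 after tremolite fragments, and Adam15 fell by 0.23 after tremolite asbestos. Of 2 ADAMTS genes and relatives, Adamtsl4 fell after riebeckite asbestos (-0.32) and no other value was called. Glycosaminoglycan degradation, in which Hpse acts on heparan sulfate, had 13 tested genes, of which 6, 6, 6 and 5 were higher and 3, 3, 2 and 3 lower, with medians of 0.19, 0.24, 0.24 and 0.21. Arsb (arylsulfatase B) rose by 0.69, 0.90, 0.33 and 0.45. Ids (iduronate 2-sulfatase) fell by 0.85, 0.55, 0.48 and 0.44.

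Markers of cells that could carry these proteases were read in the same libraries. Of 15 neutrophil markers 2 had values, S100a8 and Cxcr2, and the other 13, among them Mpo, Elane and Ly6g, were not analysed here. Their summed FPKM was 28.2 to 33.8 in untreated libraries, 68.3 to 71.4 after riebeckite asbestos and 68.8 to 72.1 after riebeckite fragments. After tremolite it was 37.0 to 46.1 with asbestos and 36.3 to 39.8 with fragments. Most of each sum was S100a8, at means of 27.8 FPKM untreated, 56.7 and 51.6 FPKM after riebeckite asbestos and fragments, and 35.3 and 28.1 FPKM after tremolite asbestos and fragments. Cxcr2 had means of 2.51 FPKM untreated, 13.5 and 19.0 FPKM after riebeckite and 5.49 and 10.2 FPKM after tremolite in the same order. The Cxcr2 means, like those of Mmp8, were higher after fragments than after asbestos in both minerals, while those of S100a8 were lower. Unlike Mmp8, Cxcr2 also had means above untreated after both asbestos forms. Of 9 osteoclast and giant cell markers 6 had values, with sums of 1514 to 1622 FPKM in untreated cells and 2605 to 2672, 2337 to 2387, 2109 to 2228 and 1902 to 2043 FPKM in the 4 exposed groups. Means were higher in every exposed group for Ctsk (806 FPKM untreated, 1082 to 1804 exposed) and Atp6v0d2 (738, 793 to 893). So were those of Acp5 (2.99, 12.9 to 35.3) and Oscar (0.101, 0.264 to 1.49). Means of Nfatc1 (9.28, 8.21 to 8.86) and Tnfrsf11a (4.50, 3.76 to 4.22) were lower in every exposed group. Ranges for 1 of 12 fibroblast markers (Acta2) were 0.829 to 1.02 FPKM untreated and 1.66 to 2.22, 1.40 to 1.86, 1.18 to 1.35 and 1.21 to 1.49 FPKM exposed. Group means of Acta2 had the same order as those of Mmp2, whose profile was common, with 372 genes above an r of 0.9. The other fibroblast markers, among them Col1a1, Dcn and Pdgfra, were not analysed here. The markers' part in the member results was not tested. Dendritic cell markers (2 of 7 measured) summed to 8.28 to 9.85 FPKM untreated and 11.6 to 16.2 FPKM exposed, epithelial markers (3 of 8) to 54.9 to 69.0 FPKM and the endothelial marker (1 of 6) to 19.1 to 23.5 FPKM over all libraries, and 0 of 6 mast cell markers had values. Within the epithelial sum, mean Krt19 was 11.3 FPKM untreated and 23.6 to 30.1 FPKM in the exposed groups, while mean Cdh1 was 53.3 FPKM untreated and 25.7 to 35.6 FPKM exposed.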

How the data were processed

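RNA of 15 samples of MPI macrophages was sequenced as poly(A)-selected libraries, per the labels' protocols. The submitters' processing notes name cutadapt, HISAT2, StringTie and GRCm38, and no versions of them. The deposited gene and transcript tables hold FPKM values of the authors, a unit read from the values and the tools named, with no counts, so the depth is unknown and no count model was used. Values were transformed here to log2(FPKM + 1), since the authors' deposited table is linear, and a gene was tested if 3 or more libraries reached 0.5 FPKM.

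One limma 3.58.1 fit (R 4.3.3, mean-variance trend) over all 15 libraries gave 10 pairwise comparisons and the difference of habit effects between minerals, with Benjamini-Hochberg adjusted p under 0.05 called. Tables were made with Python 3.11.15 (pandas 2.3.3, numpy 2.4.6). The fit was tested on simulated data, with a setting and outcome that are not reported here. Alternatives were a trimmed mean rescaling (TMM, unweighted), quantile normalization, rescaling to nuclear genes, a pseudocount of 0.1, no filter, a mean of at least 5 FPKM, a replicate block, only the groups compared, no trend, summed transcripts and leaving out each library.

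Named in the text were all 8 members, up to 4 genes per list with the smallest F-test p over the groups, and per member the 3 genes of highest r among tested genes whose mean reached 1 FPKM. Marker genes and Mmp23 are named outside that rule, after their values were seen. Some genes that the rule takes from the lists are not reported here. Members and lists were chosen with earlier results of these data known. Same-numbered libraries deviated together in 4 of 30 pairs (r over 0.1; range -0.0613 to 0.172). For 10 of the 15 libraries the closest library of another group had the same number. The correlations were not over 0.1 in every pair, so the numbers were not taken to pair the samples.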

Additional observations from a re-analysis of the deposited data

Results flagged for a closer look

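In 2 members the effect of particle habit differed between the minerals by a test of the difference itself. Habit cannot be told apart from mass dose in either mineral. For Mmp19, asbestos minus fragments was 0.14 in riebeckite and -0.16 in tremolite, and riebeckite minus tremolite of these effects was 0.30 (SE 0.0517, limma, adjusted p = 0.00731; 0.00520 to 0.0247 over 22 alternatives). All 3 riebeckite asbestos libraries were above the 3 riebeckite fragment libraries, and all 3 tremolite asbestos libraries below the 3 tremolite fragment libraries. For Hpse, asbestos minus fragments was -0.44 in riebeckite and 0.24 in tremolite, a difference of -0.68 (SE 0.110, limma, adjusted p = 0.0057; 0.00494 to 0.0246 over 21 alternatives). The 3 riebeckite asbestos libraries were below the 3 riebeckite fragment libraries, and the 3 tremolite asbestos libraries above the 3 tremolite fragment libraries. Among all genes 3.93% showed such a difference. Asbestos and fragment libraries were without overlap in 28.99% of all genes in riebeckite and in 17.02% in tremolite.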

How the results depend on the processing

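Against untreated cells, 375 of 376 member values under the alternatives kept their direction where called and their side of the threshold, and the other was Mmp8 after riebeckite asbestos, given with its value above. Of 564 values between particles 515 did so, 48 lost their call and 1 gained one, and of 130 values for the difference of habit effects 129 did so. None reversed. The cause of these changes was not tested, except that a mean of at least 5 FPKM removes members from the test and that leaving out libraries leaves fewer. The replicate block changed none of the 66 member calls. With the replicate block, 4893, 4147, 2649 and 3006 genes were called after riebeckite asbestos, riebeckite fragments, tremolite asbestos and tremolite fragments against untreated. Scaling moved the median of all genes by less than 0.1.

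A mean of at least 5 FPKM left 6679 genes and 4 members tested. Of the 4 members, 3 were called for riebeckite fragments against untreated (with 2965 of all genes), 3 for riebeckite asbestos against riebeckite fragments, 1 for tremolite asbestos against tremolite fragments, 3 for riebeckite fragments against tremolite asbestos and 1 for the difference of habit effects. Fitting only the groups compared called 275 genes and 2 members for riebeckite asbestos against fragments, 29 genes and 1 member for tremolite asbestos against fragments, 676 genes for riebeckite against tremolite fragments, and 883 genes and 3 members for riebeckite fragments against tremolite asbestos. Summed transcripts called 657 genes for the riebeckite habits, 43 genes and 1 member for the tremolite habits, 730 genes and 1 member for riebeckite against tremolite fragments, 1747 genes for riebeckite asbestos against tremolite fragments, 3 members for riebeckite fragments against tremolite asbestos and 198 genes for the difference of habit effects.

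Leaving out 1 library gave 644 to 878 genes and 3 to 5 members for the riebeckite habits (644 without riebeckite asbestos replicate 1, 665 without riebeckite fragments replicate 2, 730 without riebeckite asbestos replicate 2). It gave 31 to 92 genes for the tremolite habits (31 without tremolite fragments replicate 1), 717 to 970 genes and 1 to 3 members between fragments (717 without riebeckite fragments replicate 1), 3 to 5 members for riebeckite fragments against tremolite asbestos (3 without tremolite asbestos replicate 3) and 210 to 425 genes for the difference of habit effects (210 without tremolite fragments replicate 2).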

Other observations

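Heparan sulfate proteoglycans, the substrates of heparanase, and the enzymes that build them had 12 tested genes. Against untreated, 3, 2, 2 and 3 were higher and 1, 3, 1 and 2 lower for riebeckite (asbestos, then fragments) and tremolite (asbestos, then fragments), with medians of 0.06, 0.04, 0.00 and -0.00. In that order 45.3%, 38.4%, 23.9% and 27.5% of all genes were called in either direction, also for the list in the next paragraph. Srgn (serglycin, the proteoglycan of secretory granules) was 3.08 ± 0.582 FPKM (SD, n = 3) in untreated cells and rose by 0.79, 1.14 and 0.77 after riebeckite asbestos, riebeckite fragments and tremolite fragments. After tremolite asbestos Srgn was at 0.11 and not called. Srgn was lower after asbestos than after fragments in riebeckite (-0.34, adjusted p = 0.0335) and in tremolite (-0.67, adjusted p = 0.00492, limma). Sdc4 (syndecan-4) rose by 0.62, 0.45, 0.31 and 0.25 and Sdc3 fell by 0.41, 0.40, 0.12 and 0.32.

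AP-1 subunits and related factors, named for the motif in the Mmp12 window, had 14 tested genes, of which 5, 2, 5 and 5 were higher and 4, 4, 2 and 3 lower in the same order, with medians of 0.09, -0.07, -0.02 and 0.03. Fosl2 rose by 0.44, 0.33, 0.17 and 0.40. Jun fell by 0.26 after riebeckite asbestos, 0.68 after riebeckite fragments and 0.26 after tremolite fragments and was at -0.02 after tremolite asbestos. Ets2 rose by 0.73, 0.34 and 0.37 after riebeckite asbestos, tremolite asbestos and tremolite fragments and was at 0.13 after riebeckite fragments. Atf3 rose by 0.31, 0.55 and 0.29 after the same 3 particles and was at 0.05 after riebeckite fragments.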
